A study of Rattus norvegicus with 24 samples.

Results

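Fatty acid oxidation and fasting genes are described here as a set of 39 rat genes, chosen by symbol from the probe set annotation and measured in liver and spleen. A gene with several probe sets was read from the brightest of them, by its average over the 24 arrays. Of the 39 genes, 38 had a probe set naming them alone, out of 14201 genes on the array; the probe set of Acaa1a, a peroxisomal thiolase, also names Acaa1b and was not used. In each organ 37 genes could be tested. The remaining gene was Ppara, which was blank in every rat of 1 group in each organ.

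Between meals the liver takes up fatty acids released by adipose tissue, activates them to acyl-CoA, carries them into mitochondria on carnitine and breaks them down by beta-oxidation, while very long and branched chains are shortened in peroxisomes. The nuclear receptor PPARA, helped by the coactivator PPARGC1A and the transcription factor CREB3L3, switches on most of these enzymes during fasting, together with the secreted proteins FGF21 and ANGPTL4. In the spleen the same enzymes serve resident cells such as macrophages, which take up and burn lipid.

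The animals were wild-type male Sprague-Dawley rats aged 46 to 49 days. Each was dosed by mouth for 5 days with vehicle or with cyclophosphamide, an alkylating cytostatic drug, at 40 mg/kg/day, and was kept with or without wood sticks. There were 4 groups of 3 rats (vehicle without wood, drug without wood, vehicle with wood, drug with wood), and liver and spleen of each rat went to 1 Affymetrix array each. The groups share strain, sex, age and length of dosing; feeding state, body weight and the vehicle's make-up are not given in the sources used here.

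The liver array of animal 2003 (drug without wood) stood apart, with 6060 blank cells and correlated with the remaining livers at 0.847 on average, whereas the others were at 0.906 or above. Spleen arrays had 1021 to 1920 blank cells, and over 1500 of them in the 3 vehicle rats without wood and in drug rat 2005. A refit with those arrays as a term of the model is called the batch term for blanks. Its size rests on drug rat 2005 against drug rats 2001 and 2003, the only group holding both kinds of array. Hepatocyte markers summed to intensities of 101720 to 110901 in vehicle livers and 429 to 1028 in vehicle spleens, so both organs carried their label's pattern. Levels below are log2 intensities of 1 probe set and are compared between rats and organs, never between genes.

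In liver, the drug change of these genes leaned to negative values and no gene passed the test. The change is the mean of drug minus vehicle without and with wood, on the log2 scale, with its SE from limma. Of 37 genes, 35 had a change below 0, where 53.9% of all 12683 genes tested did, and the median was -0.24 against -0.02 over all genes. With limma and Benjamini-Hochberg adjustment 0 of 37 passed an adjusted p of 0.05, a threshold that 0.812% of all genes passed. At an unadjusted p under 0.05, 20 of 37 were lower (8.27% of all genes) and 0 were higher (6.01% of all genes). Without the array of 2003 the counts were 34 of 37 below 0 and 19 lower at an unadjusted p under 0.05, with a median of -0.24. Of all 12573 genes then tested 1110 were lower at that level, and their median was -0.01.

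The smallest adjusted p values in liver belonged to Hadh (0.0647), Hadha (0.0885), Fgf21 (0.0908) and Plin2 (0.0941). Where genes had to have a level at or above the median of all genes, 5 genes of the set passed (Fgf21, Angptl4, Plin2, Hadh and Hadha). With a trended and robust variance prior 6 did (Fgf21, Plin2, Acadl, Acadm, Hadh and Hadha), and all these were lower in drug rats. These settings also called more of all genes, 197 of 6342 with the filter and 206 of 12683 with the prior, in either direction. In 4 of the 36 genes with a value in every rat, Fgf21, Acadl, Hadh and Hadha, all 6 drug rats were lower than all 6 vehicle rats, a pattern that 1.82% of all such genes showed.

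In spleen, the drug raised most of the set. Of 37 genes, 21 rose, where 26.9% of all 13614 genes tested did, and 2 fell, Acsl1 and Acadm, where 28.1% of all genes did. The median change was 0.45 against -0.02 over all genes. All 6 drug rats were above all 6 vehicle rats in 14 of the 33 genes with a value in every rat (16.1% of all such genes), and all were below in 2 (15.1%). Cell type markers moved in the same spleens.

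**Figure D1:**
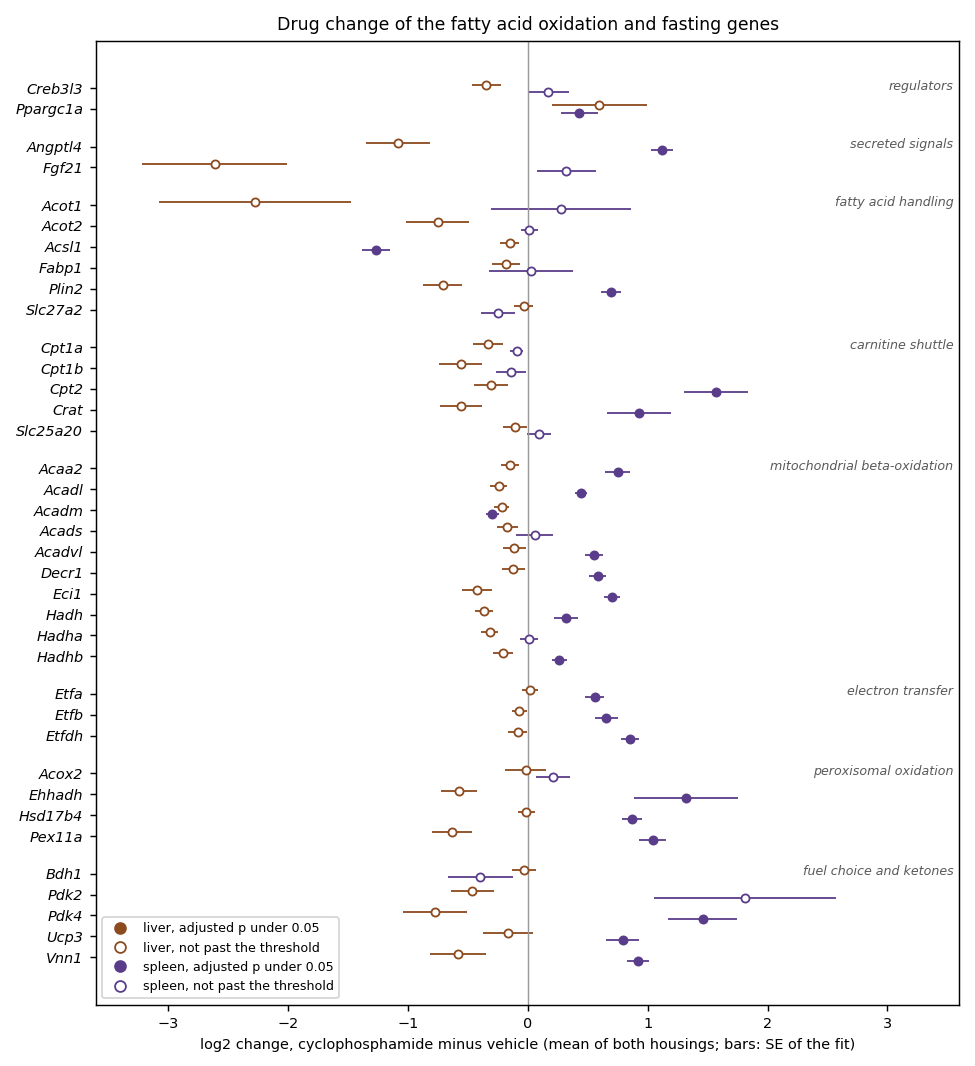
Log2 change, cyclophosphamide minus vehicle, of each tested gene in liver (brown) and spleen (purple), grouped by role; bars are the SE of the limma fit and filled points passed an adjusted p of 0.05. Liver points lie mostly left of 0 and are all open, and 21 filled spleen points lie right of 0 with 2 left of it.

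Cell markers shifted in both organs. The counts below stand beside 0.166% of all genes higher and 0.647% lower in liver, and 26.9% and 28.1% in spleen. In drug livers 5 of 11 tested macrophage markers fell and 0 rose, and the summed intensity of the list went from 8326 to 10533 in vehicle rats to 4478 to 7143 in drug rats. The erythroid list went from 8665 to 13868 down to 327 to 808, with 3 of 9 tested genes lower, while 0 of 11 hepatocyte markers passed and their sums overlapped (99525 to 113402 in drug rats, median change 0.01). In drug spleens 6 of 6 B cell markers fell (sums from 15931 to 21066 down to 1642 to 2726), as did 10 of 10 erythroid markers (25345 to 37783 down to 555 to 2784). Macrophage markers rose in 10 of 11 (23727 to 30804 up to 46206 to 53848) and stroma and endothelium markers rose in 9 of 11 and fell in 1 (5650 to 7163 up to 12815 to 15391). Exocrine pancreas markers summed to 382 to 923 in vehicle spleens and 639 to 18300 in drug spleens, with 1 of 10 genes higher. The spleen of animal 2003 (drug without wood) stood apart at 18300, the other drug spleens having at most 1334. Without that animal 19 of 37 oxidation genes rose and 2 fell in spleen, the calls of Ppargc1a and Ehhadh being lost. The part of these shifts in the changes of the oxidation genes was not tested, and in bulk tissue fewer cells of a type and less RNA per cell cannot be told apart.

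**Figure D2:**
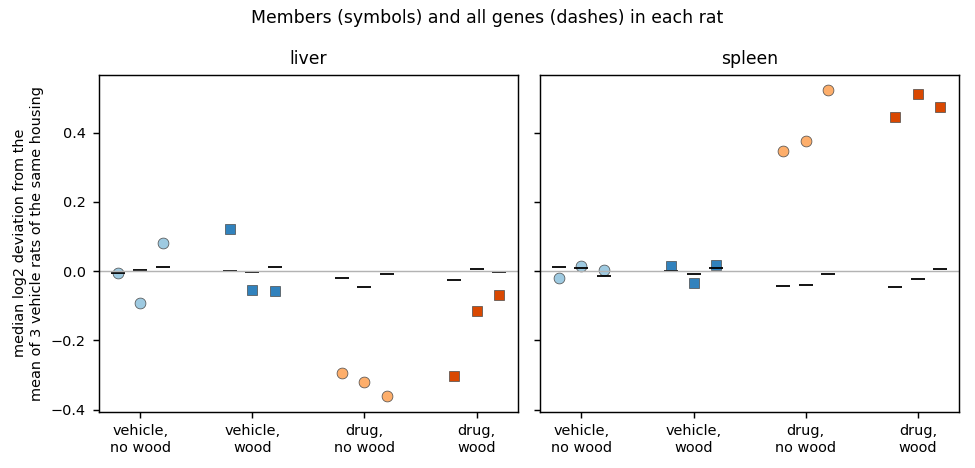
Median log2 deviation of the genes of the set from the mean of the 3 vehicle rats of the same housing, for each rat (symbols; 36 genes in liver, 33 in spleen), with the median of all genes (dashes). Drug livers run from -0.36 to -0.07 and drug spleens from 0.35 to 0.52, while all genes stay within 0.05 of 0. Each vehicle rat is part of its own reference mean, which draws its value towards 0.

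Rats differed in how far the set as a whole moved. The median deviation from the mean of the 3 vehicle rats of the same housing was -0.29, -0.32 and -0.36 in the livers of the 3 drug rats without wood and -0.30, -0.12 and -0.07 in those with wood, against -0.09 to 0.12 in vehicle livers. So 1 of the 3 drug rats with wood (animal 4001) lay with the rats without wood, and animal 4005 lay within the range of the vehicle rats. In spleen the 6 drug rats had medians of 0.35 to 0.52 and the vehicle rats of -0.03 to 0.02. Each vehicle rat is part of the mean it is compared with, which draws its value towards 0, and no drug rat is. The vehicle ranges therefore understate the spread between rats, and the gap between treatments cannot be judged from them.

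Regulators. Ppara was measured in liver in 4 of 6 vehicle rats (2.48 to 7.52) and in 2 of 6 drug rats (6.05 and 6.50), and in spleen in 3 of 6 vehicle rats (4.01 to 5.09) and 5 of 6 drug rats (4.25 ± 0.19, SD, highest 4.49). With whole groups blank, no change was fitted. Creb3l3, a liver transcription factor that acts with PPARA on Fgf21, lay at 11.84, 12.12 and 12.35 (lowest, median, highest) in vehicle livers and at 11.54, 11.71 and 12.03 in drug livers. The groups overlapped, with a change of -0.34 ± 0.12 (SE; limma adjusted p = 0.254). In spleen its change was 0.17 ± 0.17 (limma adjusted p = 0.405).

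Ppargc1a, the coactivator, was 1 of 2 genes with a liver change above 0, at 0.60 ± 0.40 (limma adjusted p = 0.537), and that value rested in part on the array that stood apart: animal 2003 had 7.84, the highest of the 12 livers, and without it the change was 0.29 (limma adjusted p = 0.716). In spleen Ppargc1a rose by 0.43 ± 0.15 (limma adjusted p = 0.0402), from a median of 4.17 in 5 vehicle rats, 1 being blank, to 4.58 in drug rats. The ranges overlapped (3.95 to 4.67 and 3.96 to 5.14). Of 12 refits without 1 rat the spleen call was kept in 4, and it was lost with the batch term for blanks (0.26, limma adjusted p = 0.219). Its other 2 probe sets, both dimmer, had spleen changes of -2.11 and -2.39.

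Secreted signals. Fgf21, a hormone of the fasted liver, had the largest liver change of the set. Vehicle livers lay at 8.69, 7.61 and 10.05 without wood and 11.04, 8.70 and 7.49 with wood, and drug livers at 6.22, 5.20 and 6.37 without wood and 6.96, 6.43 and 6.74 with wood. Every drug rat was below every vehicle rat, and the vehicle rats were spread over a wider range than the drug rats. The change was -2.61 ± 0.61, a 6.11-fold difference (limma adjusted p = 0.0908; -2.43 and 0.145 without animal 2003). In spleen, where Fgf21 lay between 4.02 and 5.86, the change was 0.32 ± 0.24 (limma adjusted p = 0.289).

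Angptl4 is an inhibitor of lipoprotein lipase. Its liver levels were 10.44, 10.95 and 11.18 (lowest, median, highest) in vehicle rats and 8.88, 9.82 and 10.53 in drug rats, so that only the highest drug rat reached the vehicle range. The liver change was -1.08 ± 0.27 (limma adjusted p = 0.112). In spleen it rose by 1.12 ± 0.09 or 2.17-fold (limma adjusted p = 7.56e-06), from 9.42 to 9.79 in vehicle rats to 10.59 to 11.03 in drug rats, without overlap.

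**Figure D3:**
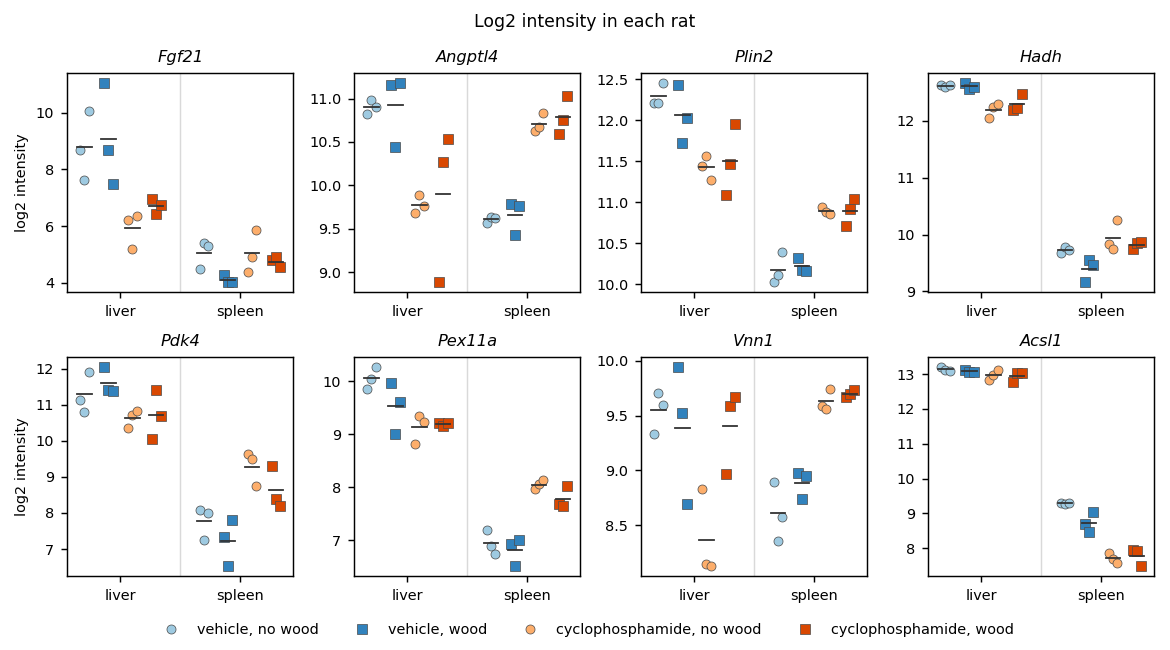
Log2 intensity in each rat for 8 genes in liver and spleen; circles are rats without and squares rats with wood, blue vehicle and orange cyclophosphamide, and lines are means of 3 rats. Fgf21 and Hadh separate the treatments in liver, Angptl4, Plin2, Pdk4, Pex11a and Vnn1 rise in spleen, and Acsl1 falls there.

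The promoters of 4 genes are shown, since they carry the motifs at issue or, for Angptl4, none of them: Fgf21 for its liver change, Angptl4 for its rise in spleen, and Acadvl and Fabp1 for the only matches to the motif of PPARA. The windows run from upstream of the gene start to just past it and come from RefSeq on GRCr8, on the gene's own strand, 5′ to 3′, with motif matches in capitals. They lie at chr1:105221327-105221626 (minus strand), chr7:15258632-15258931 (minus strand), chr10:55236656-55236955 (minus strand) and chr4:104749090-104749389 (plus strand).
Fgf21: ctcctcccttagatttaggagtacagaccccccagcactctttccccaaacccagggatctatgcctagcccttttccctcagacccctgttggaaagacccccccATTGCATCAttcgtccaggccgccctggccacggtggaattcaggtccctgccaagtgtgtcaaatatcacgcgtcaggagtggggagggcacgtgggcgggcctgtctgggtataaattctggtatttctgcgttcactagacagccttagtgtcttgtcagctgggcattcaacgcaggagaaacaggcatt
Angptl4: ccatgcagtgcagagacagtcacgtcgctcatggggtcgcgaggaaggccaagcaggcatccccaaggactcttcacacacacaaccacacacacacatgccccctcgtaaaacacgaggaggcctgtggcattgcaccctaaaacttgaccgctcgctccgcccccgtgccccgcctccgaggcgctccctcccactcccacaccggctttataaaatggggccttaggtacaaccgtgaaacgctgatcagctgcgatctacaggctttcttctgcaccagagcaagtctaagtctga
Acadvl: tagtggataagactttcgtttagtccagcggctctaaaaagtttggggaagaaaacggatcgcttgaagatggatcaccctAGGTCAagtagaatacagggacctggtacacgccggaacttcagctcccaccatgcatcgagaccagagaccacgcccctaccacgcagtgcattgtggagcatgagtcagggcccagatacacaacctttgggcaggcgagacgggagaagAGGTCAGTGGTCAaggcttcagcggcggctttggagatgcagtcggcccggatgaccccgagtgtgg
Fabp1: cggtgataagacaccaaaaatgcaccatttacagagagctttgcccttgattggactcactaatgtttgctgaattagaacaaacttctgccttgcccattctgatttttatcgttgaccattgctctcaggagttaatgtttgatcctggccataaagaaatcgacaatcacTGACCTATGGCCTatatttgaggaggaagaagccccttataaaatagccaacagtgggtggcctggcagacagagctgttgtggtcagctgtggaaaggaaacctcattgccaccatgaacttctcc

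Of the 38 genes, 33 had such a window; Acaa2, Acadl, Cpt1b, Decr1 and Vnn1 are named only. Both strands were searched for 4 motifs. PPARA with its partner RXR binds DR1, which is AGGTCA followed by 1 base and AGGTCA again. With at most 1 mismatch DR1 was found in 2 of 33 windows, Acadvl at position -17 from the start and Fabp1 at -77 on the opposite strand, and in 0.463% of 27457 windows of all genes. Without a mismatch it was in 0 of 33 and in 0.0583% of all. The single AGGTCA, which lies within DR1, was in 8 of 33 windows (24.2%) and in 15.7% of all. TGACGTCA, the site of cyclic AMP response factors, was in Acadm and Ppargc1a (1.91% of all windows), and TGATGCAAT, a site of ATF4 with C/EBP, was in Fgf21 at -144 on the opposite strand (0.193% of all). The 2 genes with a DR1 match had liver changes of -0.18 ± 0.12 (Fabp1, limma adjusted p = 0.519) and -0.11 (Acadvl, 0.656). Whether the motifs go with the drug changes was not tested, and sites outside these windows were not searched. These matches describe letters and not binding.

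Fatty acid handling. Plin2, the coat protein of lipid droplets, lay at 11.72, 12.21 and 12.45 (lowest, median, highest) in vehicle livers and at 11.09, 11.45 and 11.96 in drug livers. The highest drug rat reached into the vehicle range, and the change was -0.71 ± 0.17 (limma adjusted p = 0.0941). In spleen it rose by 0.70 ± 0.08 (limma adjusted p = 6.83e-05), from 10.02 to 10.40 up to 10.71 to 11.04, without overlap. Both Plin2 probe sets gave such values (-0.65 in liver and 0.72 in spleen for the other one).

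Acot1 and Acot2 are thioesterases that release fatty acids from acyl-CoA in cytosol and mitochondria, and their sequences are close enough that 1 further probe set names both. Acot1 in liver had 4.92, 4.17 and 7.47 without wood and 8.53, 5.57 and 4.82 with wood in vehicle rats. Drug rats had 4.21 and 2.96 with 1 blank without wood, and 3.90, 3.52 and 3.66 with wood. The treatments overlapped only in the lowest vehicle rat and the highest drug rat. The change was -2.27 ± 0.80 (limma adjusted p = 0.256). Acot2 in liver had a change of -0.75 ± 0.26 (limma adjusted p = 0.237), with -0.86 and -1.04 for its other probe sets. In spleen both had changes near 0 beside their errors (0.28 ± 0.59 and 0.01 ± 0.07).

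Acsl1, which activates long-chain fatty acids to acyl-CoA, fell in spleen by 1.26 ± 0.12 on the log2 scale (limma adjusted p = 1.43e-05), against the direction of most of the set. Vehicle spleens lay at 9.29, 9.28 and 9.29 without wood and 8.70, 8.46 and 9.04 with wood, and drug spleens from 7.48 to 7.96. All drug rats were below all vehicle rats, and the other 2 probe sets of Acsl1 had -0.42 and -1.52. In liver its change was -0.15 ± 0.08 (limma adjusted p = 0.413). Fabp1, the liver fatty acid carrier, and Slc27a2, a fatty acid transporter with acyl-CoA synthetase activity, had liver changes of -0.18 ± 0.12 and -0.03 ± 0.08 and spleen changes of 0.03 ± 0.35 and -0.25 ± 0.14; none passed.

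Carnitine shuttle. Cpt2, which returns the acyl group from carnitine to CoA inside the mitochondrion, had the largest rise in spleen among the genes that passed, 1.57 ± 0.27 or 2.97-fold (limma adjusted p = 0.00097). Vehicle rats without wood had 6.81 and 5.34 with 1 blank, those with wood 7.68, 7.42 and 7.68, and drug rats from 7.90 to 8.75. The measured vehicle values were all below the drug values, but the lowest came from the arrays with many blanks: the change was 2.36 ± 0.40 without wood and 0.78 ± 0.36 with wood (limma adjusted p = 0.119 for the latter). In liver Cpt2 had -0.30 ± 0.14 (limma adjusted p = 0.37).

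Crat, a carnitine acetyltransferase, rose in spleen by 0.93 ± 0.26 (limma adjusted p = 0.0133), and its call was lost with the batch term for blanks (0.85, limma adjusted p = 0.0637). Its liver change was -0.56 ± 0.17 (limma adjusted p = 0.191). Cpt1a, the rate-limiting entry step in liver, had -0.33 ± 0.12 there (limma adjusted p = 0.276): the drug rats without wood were at 12.28, 12.03 and 11.79 and those with wood at 12.12, 12.60 and 12.61, against 12.34 to 12.87 in vehicle rats. Its other liver probe set had -0.07. Cpt1b, the muscle form, had -0.56 ± 0.18 in liver (limma adjusted p = 0.207), and Slc25a20, the carnitine carrier of the inner membrane, -0.11 ± 0.10; none of the 3 passed in spleen (-0.09, -0.14 and 0.09).

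Mitochondrial beta-oxidation. All 10 genes of the spiral had a liver change below 0, between -0.42 and -0.11, and 6 were lower at an unadjusted p under 0.05, beside 53.9% and 8.27% of all genes. Hadh is the short-chain hydroxyacyl-CoA dehydrogenase. Its vehicle livers ran from 12.57 to 12.66, and drug livers from 12.05 to 12.47. The groups did not overlap and the change was -0.37 ± 0.08 or 1.29-fold (limma adjusted p = 0.0647). Hadha, the alpha subunit of the trifunctional protein, lay at 11.86 to 12.08 in vehicle livers and 11.44 to 11.85 in drug livers, a change of -0.32 ± 0.07 (limma adjusted p = 0.0885). A dimmer probe set of Hadha had -0.08 in liver, and over the other settings the Hadha change ran from -0.34 to -0.20. Its partner subunit Hadhb had -0.20 ± 0.08 (limma adjusted p = 0.314).

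Of the acyl-CoA dehydrogenases, which make the first double bond, Acadl and Acadm had liver changes of -0.24 ± 0.07 and -0.21 ± 0.06 (limma adjusted p = 0.162 and 0.171). Acads, for short chains, and Acadvl, for very long ones, had -0.17 ± 0.09 and -0.11 ± 0.10. Eci1, an isomerase for unsaturated chains, had -0.42 ± 0.13 (limma adjusted p = 0.175), but the mean of its 2 probe sets gave 0.15, since the dimmer probe set had 0.72. Acaa2, the mitochondrial thiolase, had -0.15 ± 0.08 with the probe set used and -0.63 with the other, and Decr1, which reduces dienoyl-CoA, had -0.12 ± 0.09.

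In spleen 7 of these 10 rose and 1 fell, beside 26.9% and 28.1% of all genes, all by less than 2-fold. Acaa2 rose by 0.75 ± 0.10 (limma adjusted p = 0.00019), Eci1 by 0.70 ± 0.07 (1.64e-05), Decr1 by 0.58 ± 0.07 (7.02e-05) and Acadvl by 0.55 ± 0.07 (0.000135). The other probe set of Acaa2 had -0.01 in spleen, and the mean over the Eci1 probe sets gave 0.20 (limma adjusted p = 0.359). Acadl rose by 0.45 ± 0.05 (limma adjusted p = 4.8e-05), with the 6 drug rats between 10.30 and 10.34 and the vehicle rats between 9.79 and 10.05. Hadh and Hadhb rose by 0.32 ± 0.10 and 0.26 ± 0.06 (limma adjusted p = 0.0211 and 0.00609). Acadm, for medium chains, fell by 0.30 ± 0.05 on the log2 scale (limma adjusted p = 0.00117), from 9.96 to 10.18 down to 9.73 to 9.91, while Hadha and Acads had 0.01 ± 0.07 and 0.06 ± 0.15. The dimmer probe sets of Hadha had -0.27 and 0.56 in spleen.

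Electron transfer. The flavoprotein that takes electrons from the acyl-CoA dehydrogenases (subunits Etfa and Etfb) and its oxidoreductase Etfdh rose in spleen. These were 3 of 3 genes, beside 26.9% of all genes. Etfdh rose by 0.85 ± 0.07 (limma adjusted p = 9.36e-06), from 7.56 to 7.77 up to 8.34 to 8.85. Etfb rose by 0.66 ± 0.10 and Etfa by 0.56 ± 0.08 (limma adjusted p = 0.000297 and 0.000234). In liver the 3 genes had 0.02 ± 0.07 (Etfa), -0.07 ± 0.06 (Etfb) and -0.08 ± 0.08 (Etfdh), the smallest median of any role there.

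Peroxisomal oxidation. Pex11a, which drives division of peroxisomes, had a liver change of -0.63 ± 0.17 (limma adjusted p = 0.137), and in spleen it rose by 1.04 ± 0.12 or 2.06-fold (limma adjusted p = 4.41e-05). Spleen levels were 6.51 to 7.19 in vehicle and 7.64 to 8.13 in drug rats, without overlap, while in liver 1 vehicle rat with wood, at 9.01, lay inside the drug range of 8.81 to 9.34. Its second probe set had -0.60 and 1.21. Hsd17b4, the D-bifunctional protein, rose in spleen by 0.87 ± 0.08 (limma adjusted p = 1.64e-05) and had -0.01 ± 0.07 in liver.

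Ehhadh, the L-bifunctional protein and a known target of PPARA, had a liver change of -0.57 ± 0.15 (limma adjusted p = 0.133), with 11.62 to 12.32 in drug and 12.20 to 12.86 in vehicle livers. In spleen it rose by 1.32 ± 0.43 (limma adjusted p = 0.0361), but at levels of 2.51 to 5.03 with 3 of 12 arrays blank. That call was lost without any 1 of the animals 2003, 3005, 4001 and 4005 (limma adjusted p up to 0.0983, without animal 2003). Acox2, an oxidase for branched chains and bile acid intermediates, had -0.02 ± 0.17 in liver and 0.21 ± 0.14 in spleen.

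Fuel choice and ketones. Pdk4, the kinase that shuts pyruvate dehydrogenase in fasting, lay at 10.80, 11.39 and 12.04 (lowest, median, highest) in vehicle livers and at 10.06, 10.70 and 11.39 in drug livers, with a change of -0.78 ± 0.27 (limma adjusted p = 0.23). In spleen it rose by 1.46 ± 0.29 or 2.75-fold (limma adjusted p = 0.0018), from 6.52 to 8.07 up to 8.18 to 9.63, without overlap. The dimmer probe set of Pdk4 had -0.64 in liver and a smaller rise of 0.76 ± 0.14 in spleen. Pdk2, another such kinase, had -0.46 ± 0.18 in liver (limma adjusted p = 0.29; -0.63 and 0.0395 without animal 2005, whose 10.02 lay among the vehicle rats). In spleen Pdk2 had 1.81 ± 0.76 (limma adjusted p = 0.0668), a value carried in part by 1 vehicle rat at 0.41.

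Vnn1 is a pantetheinase and a liver target of PPARA. In its liver levels the drug rats without wood lay at 8.83, 8.15 and 8.13 and those with wood at 8.97, 9.59 and 9.67, against 8.70 to 9.94 in vehicle rats, and the change over both was -0.58 ± 0.23 (limma adjusted p = 0.307). In spleen it rose by 0.92 ± 0.09 (limma adjusted p = 2.44e-05), from 8.36 to 8.98 up to 9.56 to 9.75. Ucp3, a mitochondrial carrier linked to fat oxidation, rose in spleen by 0.79 ± 0.14 (limma adjusted p = 0.000895) and had -0.16 ± 0.21 in liver; its other probe set had 1.04 and 0.54. Bdh1, which makes the ketone body hydroxybutyrate, had -0.03 ± 0.10 in liver and -0.39 ± 0.27 in spleen with the probe set used, and -0.38 and -1.93 with its other probe set.

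Organ levels in vehicle rats placed the set in the liver. Of 37 genes, 36 were higher in liver, where 20.2% of all 12474 genes tested were, and 0 were lower by limma, where 59.2% of all genes were, also at an unadjusted p under 0.05 (0 lower). The median difference was 2.47 against -0.72 over all genes. The 5 with the highest fitted values were Fabp1 (9.51 ± 0.25), Ehhadh (9.39 ± 0.31), Creb3l3 (6.94 ± 0.15), Slc27a2 (5.92 ± 0.12) and Acox2 (5.71 ± 0.16). The sizes for Fabp1 and Ehhadh rest on dim spleen values (3.74 to 5.42, and 2.51 to 3.84 with 2 of 6 blank) and ran from 8.68 to 10.27 and from 8.01 to 10.13 over the other settings. At the other end Ucp3 was level between the organs (-0.01, interval -0.39 to 0.37), and Cpt1b (0.63 ± 0.16) and Vnn1 (0.72 ± 0.18) differed least among those that passed. No scaling between the organs was added to the deposited values. With the mean of its probe sets Plin2 was lower in liver (-0.39, limma adjusted p = 0.000996).

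**Figure D4:**
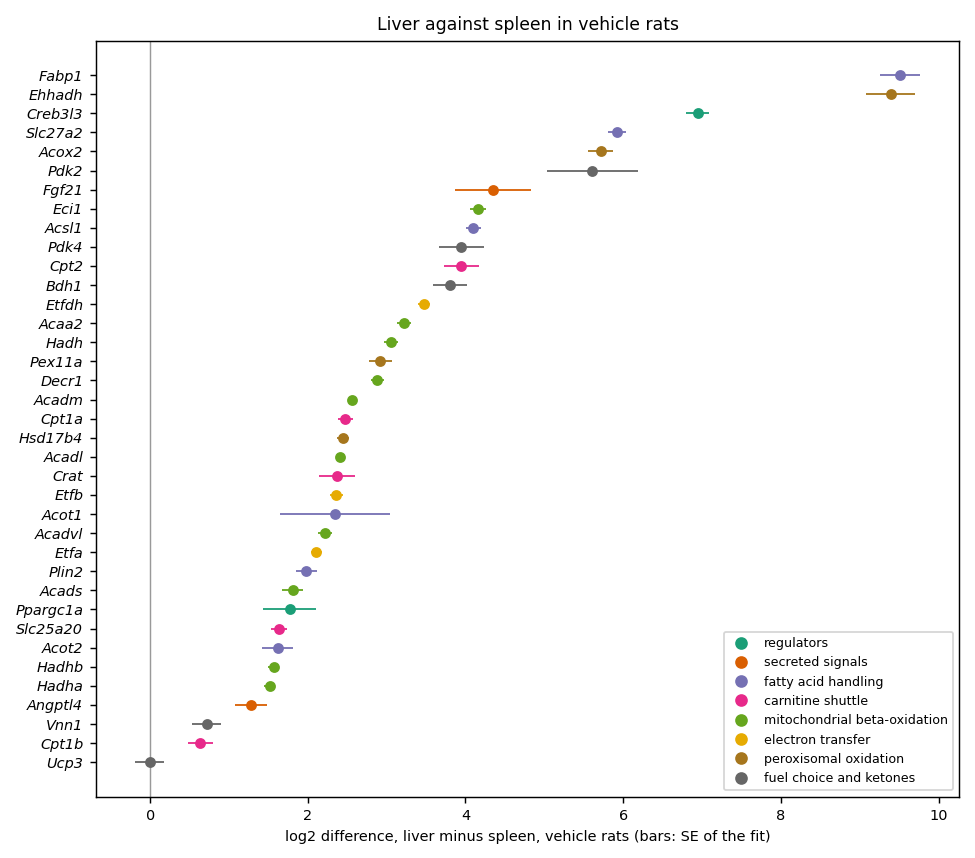
Log2 difference, liver minus spleen, in the 6 vehicle rats for each of 37 genes, coloured by role, with the SE of the limma fit over 24 arrays. The differences run from -0.01 for Ucp3 to 9.51 for Fabp1.

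The organs differed in their drug change for 25 of the 37 genes. In a fit over both organs the liver change was below the spleen change in 24 of them, where 18.4% of all genes were called that way, and above it in 1, Acsl1 (1.11 ± 0.14), where 14.7% were. The median difference of the changes was -0.70 against 0.01 over all genes. The largest of those that passed were Fgf21 (-2.93 ± 0.68; limma adjusted p = 0.00269), Pdk2 (-2.28 ± 0.82; 0.0404), Pdk4 (-2.24 ± 0.41; 0.000383), Angptl4 (-2.20 ± 0.29; 1.74e-05), Ehhadh (-1.89 ± 0.42; 0.00265) and Cpt2 (-1.87 ± 0.30; 0.000159). The call of Pdk2 was kept in 4 of 12 refits without 1 rat (-2.84 to -1.53, limma adjusted p up to 0.0937), that of Acot2 in 3 of 12 (-0.93 to -0.56) and that of Hadha in 10 of 12 (-0.38 to -0.25). With the mean of all probe sets the differences of Eci1 and Hadha were -0.0493 and -0.0675, and neither passed. For genes such as Hsd17b4 and the electron transfer genes the difference came with a liver change near 0, so a call here does not mean that both organs moved.

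Housing was compared within each organ. Without wood 0 of 37 genes passed in liver by limma (0.15% of all genes did) and 16 were lower at an unadjusted p under 0.05 (7.25% of all genes). With wood 0 passed (0.0473% of all genes) and 6 were lower at that level (4.54%). The difference of the drug changes between housings passed for 0 of 37 genes and for 0% of all genes in liver; 2 had an unadjusted p under 0.05, Vnn1 (1.20 ± 0.47; limma adjusted p = 0.95) and Cpt1a (0.69 ± 0.25; limma adjusted p = 0.95). Wood itself, over both treatments, passed for 0 of 37 in liver by limma (0% of all genes), and 0 had an unadjusted p under 0.05.

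In spleen 17 of 37 genes passed for the drug without wood (45.1% of all genes) and 21 with wood (38.4%). Without wood 15 rose and 2 fell, beside 22.7% and 22.4% of all genes. With wood 19 rose and 2 fell, beside 19.9% and 18.5%. The estimate with wood uses none of the arrays with over 1500 blanks, though its error draws on all 12 arrays. For the interaction 0 of 37 passed by limma (0.705% of all genes), with 3 at an unadjusted p under 0.05: Cpt2 (-1.59 ± 0.53), Ucp3 (0.89 ± 0.28) and Acsl1 (0.63 ± 0.23). Wood passed for 3 of 37 (12.1% of all genes): Cpt1a rose by 0.24 ± 0.05 (limma adjusted p = 0.0245), Etfb fell by 0.35 ± 0.10 on the log2 scale (0.0455) and Ucp3 fell by 0.59 ± 0.14 (0.0288). For Ucp3 the vehicle rats had 7.74, 7.91 and 7.93 without wood and 6.58, 6.76 and 7.12 with wood. All 3 calls were lost when the arrays with over 1500 blanks, which hold every vehicle spleen without wood, were a batch term (0.13, -0.30 and -0.28). That term is told apart from the group means by drug rat 2005 alone, so this refit says little about wood. Of the 3 calls, 0 were left without any 1 of the rats 1003, 3001, 3003, 4003 and 4005, and 1 was left without rat 1005.

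Other genes of lipid oxidation were read from lists of the same pathways. Their spleen counts stand beside 26.9% of all genes higher and 28.1% lower. Liver counts at an unadjusted p under 0.05 stand beside 6.01% higher and 8.27% lower. Shares near these are no result about a list. Of 18 further mitochondrial oxidation enzymes 0 passed in liver (1 higher and 6 lower at an unadjusted p under 0.05, median -0.09), with Acss1, an acetyl-CoA synthetase, at -1.04 ± 0.29 (limma adjusted p = 0.152) and Acadsb, the dehydrogenase for branched short chains, at 0.67 ± 0.14 (0.0695). In spleen 6 rose and 0 fell (median 0.18), led by Acadsb (1.17 ± 0.16), Hibch, of valine breakdown (0.81 ± 0.06), Eci2 (0.80 ± 0.07) and Mcee (0.73 ± 0.17).

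Of 23 peroxisome genes 0 passed in liver (2 higher and 3 lower at an unadjusted p under 0.05, median -0.04), with Crot, which makes acylcarnitine in peroxisomes, at -0.73 ± 0.19 (limma adjusted p = 0.133) and Abcd3, a peroxisomal fatty acid transporter, at -0.59 ± 0.15 (0.118). In spleen 10 rose and 3 fell (median 0.18): Phyh, of phytanic acid oxidation, fell by 1.02 ± 0.09, Pex6 fell by 0.92 ± 0.19 and Pex16 fell by 0.89 ± 0.16, while Ech1 rose by 0.78 ± 0.06. Of 19 other targets of PPARA, omega oxidation included, 0 passed in liver (0 higher and 5 lower at an unadjusted p under 0.05, median -0.21); Acot3 had -0.89 ± 0.38 and Acot4 -0.82 ± 0.24 (limma adjusted p = 0.328 and 0.178). In spleen 6 of 18 rose and 5 fell, near the shares over all genes (26.9% and 28.1%), among them Acot12 (-1.07 ± 0.36), Gpd1 (0.72 ± 0.27), Acsm3 (-0.68 ± 0.22) and Cyp4a8 (-0.63 ± 0.13).

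Carnitine supply had 0 of 5 genes past the threshold in liver (0 at an unadjusted p under 0.05, median -0.07). In spleen 3 rose and 1 fell: Slc22a21, a carnitine transporter, fell by 1.49 ± 0.25, and Tmlhe, the first enzyme of carnitine synthesis, rose by 0.89 ± 0.11, with Aldh9a1 at 0.76 ± 0.06 and the carnitine transporter Slc22a5 at 0.55 ± 0.08. Of 7 further ketone body genes 0 passed in liver (1 lower at an unadjusted p under 0.05, median -0.13), with Aacs at 0.78 ± 0.34 and Bdh2 at -0.39 ± 0.29. In spleen 2 rose, Bdh2 (1.34 ± 0.11) and Slc16a7 (1.28 ± 0.10), and 3 fell, led by the monocarboxylate transporters Slc16a6 (-1.58 ± 0.09) and Slc16a1 (-0.92 ± 0.19).

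Lipid droplet and lipase genes gave 0 of 19 past the threshold in liver (1 higher and 4 lower at an unadjusted p under 0.05, median -0.12), with G0s2, an inhibitor of adipose triglyceride lipase, at -0.93 ± 0.32 (limma adjusted p = 0.242) and Fabp2, the intestinal fatty acid carrier, at -0.84 ± 0.31 (0.267). In spleen 11 of 20 rose and 1 fell (median 0.53): Cidea, a lipid droplet protein, rose by 1.70 ± 0.10, Fabp3 by 1.40 ± 0.22, G0s2 by 1.36 ± 0.10 and the lipase Pnpla2 by 1.20 ± 0.25. Adipocyte markers went both ways in spleen, 5 of 13 higher and 3 lower, beside 26.9% and 28.1% of all genes, with a median of 0.28. Their sums were 5133 to 7968 in vehicle and 9482 to 15069 in drug rats. Cidea, which is in both lists, rose by 1.70 ± 0.10, Cfd by 1.06 ± 0.16, Fabp4 by 0.97 ± 0.08, Dgat2 by 0.89 ± 0.15 and Slc7a10 by 0.46 ± 0.17. Adiponectin (Adipoq) fell by 0.78 ± 0.29, Pck1 by 0.68 ± 0.26 and Lipe by 0.32 ± 0.07. The part of the adipocyte markers in the lipid droplet counts was not tested.

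Nuclear receptors and coregulators gave 0 of 17 past the threshold in liver (1 higher and 1 lower at an unadjusted p under 0.05, median -0.09), with Esrra at 1.89 ± 0.81 and Nrip1, a corepressor, at -0.46 ± 0.16. In spleen 6 of 16 rose and 5 fell (26.9% and 28.1% over all genes), with the largest changes in 4 receptors: Rxra rose by 1.86 ± 0.28, Pparg by 1.45 ± 0.12 and the oxysterol receptor Nr1h3 by 1.04 ± 0.08, while Rxrb fell by 0.79 ± 0.11.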

How the data were processed

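RNA of liver and spleen of 12 rats (5 µg of total RNA each) was hybridised to 24 Affymetrix arrays. The deposited values are log10 intensities, 1 per probe set and array; the base follows from their range, and summarisation and scaling are not given in the sources used here. Blank cells (77831, or 10.5%) were left missing. Values were turned to log2 with no further scaling. Of 30980 probe sets, 20792 name 1 gene, 436 several and 9752 none in the platform annotation; the brightest probe set naming 1 gene alone was used. The number of arrays limits the precision.

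Group means were fitted with limma 3.58.1 in R 4.3.3 on 12 arrays per organ, and on all 24 for comparisons between organs, for genes with a value in every group. P-values were adjusted by Benjamini-Hochberg over all genes tested, and the threshold was an adjusted p of 0.05. Only the drug contrast within each organ was tried on simulated data, with independent noise and genes without blanks. The fit over both organs and the wood and interaction contrasts were not. Same-numbered liver and spleen arrays come from the same rat; their deviations from the group means correlated at -0.0584 to 0.17 (highest with the own rat in 11 of 12). The labels do not say whether rats were housed together, so p-values measure the spread between these rats.

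The genes and lists were chosen with earlier results of these data known. Values per rat are given for the largest drug changes, the regulators, the secreted signals and any gene past the threshold for wood; from each pathway list up to 4 genes past the threshold with the largest change are named, or 2 where none passed. Alternatives covered scale, normalisation, filters, probe set choice, variance prior, array weights, a batch term for spleen arrays with over 1500 blanks, the replicate block and each rat left out.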

Additional observations from a re-analysis of the deposited data

Results flagged for a closer look

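The drug change differed between liver and spleen for 25 of 37 genes, by limma over both organs, beside 33.1% of all genes. Each value here is the liver change minus the spleen change on the log2 scale. The liver change was lower for Fgf21 (-2.93), Pdk2 (-2.28), Pdk4 (-2.24), Angptl4 (-2.20), Ehhadh (-1.89), Cpt2 (-1.87), Pex11a (-1.67), Vnn1 (-1.50). It was also lower for Crat (-1.48), Plin2 (-1.41), Eci1 (-1.13), Ucp3 (-0.96), Etfdh (-0.94), Acaa2 (-0.90), Hsd17b4 (-0.88), Acot2 (-0.76). Smaller differences of the same direction were those of Etfb (-0.73), Decr1 (-0.70), Acadl (-0.69), Hadh (-0.69), Acadvl (-0.66), Etfa (-0.54), Hadhb (-0.47) and Hadha (-0.32). The liver change was higher for Acsl1 (1.11). Adjusted p values ran from 2.9e-06 (Etfdh) to 0.0421 (Acot2). The calls of Pdk2, Acot2 and Hadha were lost without some single rats, and those of Eci1 and Hadha with the mean of all probe sets. Cell type markers moved in both organs beside these differences, and their part was not tested.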

How the results depend on the processing

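In liver, where 0 genes were called lower with the main settings, 2 were called on the log2(intensity + 16) scale, 1 where a value was required on every array, 5 among genes at or above the median level, 2 with the mean of all probe sets and 6 with the trended, robust prior. In that order, the calls over all genes in either direction were 177 of 14201, 145 of 10799, 197 of 6342, 96 of 12697 and 206 of 12683. Leaving out 1 rat gave 0 to 1 genes of the set, and 35 to 114 of all genes. For the drug without wood in liver, 1 was called among genes at or above the median level and 1 with the trended, robust prior. With the mean of all probe sets 1 gene was lower in liver than in spleen. The spleen interaction gave 1 call with array weights (Cpt2) and 0 to 1 without 1 rat. The spleen wood effect gave 0 calls with the batch term and 0 to 4 without 1 rat.

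Refits of single genes were tallied only for values with an unadjusted p under 0.05 by limma in the main fit. Among these, Eci1 in liver (0.15 for the drug, 0.0775 without wood) and Plin2 between organs (-0.39) changed sign with the mean of probe sets. The spleen wood changes of Fgf21 (0.17) and Hadh (0.0792) did so with the batch term. Other values were not tallied, and signs changed there too: liver Acox2 went from -0.0167 to 0.0567 without animal 2003. With the animal as a replicate block, 36 genes were higher in liver and 0 lower. The drug change differed between organs in 26, Acot1 being added (-2.56, limma adjusted p = 0.0492). Without the block, 20.2% of all genes were higher in liver, and 33.1% differed in drug change. The block changed no other call of the set. The cause of these shifts was not tested. Of the refits so tallied, which include those of the organ differences in vehicle rats, 4038 kept direction and side of the threshold. Among the rest, 116 fell short of it, 45 came to pass it and 5 changed sign. Values with a larger p in the main fit are not in these counts. The 21 genes higher in spleen numbered 19 to 22 without 1 rat and 20 with the batch term. Of all genes, 6896 to 8280 were called there in either direction without 1 rat, and 6660 of 13614 with the batch term. Precision is limited by having 3 rats a group. Without the liver array that stood apart (animal 2003) the liver median stayed at -0.24 and 0 genes were called.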

Other observations

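Fasting is also marked by glucose production. A mixed list of fasting and glucose production genes is given as values, and not every gene in it makes glucose. In liver, of 17 tested 0 passed in limma and the median was -0.0015. At an unadjusted p under 0.05, 1 was higher and 2 were lower, beside 6.01% and 8.27% of all genes. Foxo1, a transcription factor of fasting, had -0.90 ± 0.43 (limma adjusted p = 0.39), and Pc, pyruvate carboxylase, had -0.46 ± 0.19. In spleen 1 of 15 rose and 6 fell, beside 26.9% and 28.1% of all genes. The largest falls were in Lpin2 (-1.24 ± 0.20), Foxo1 (-1.15 ± 0.13), Asns (-0.68 ± 0.11) and Pck1 (-0.68 ± 0.26).

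Fatty acid synthesis, the opposing pathway, had 0 of 18 genes past the threshold in liver, with a median of -0.02. At an unadjusted p under 0.05, 0 were higher and 2 lower, beside 6.01% and 8.27% of all genes. Scd, the stearoyl-CoA desaturase, had -1.91 ± 0.46 (limma adjusted p = 0.102) and Thrsp 0.91 ± 0.43. In spleen 4 of 17 rose, near the 26.9% of all genes, and 8 fell, beside 28.1% of all genes. Scd fell by 3.94 ± 0.28 (limma adjusted p = 3.07e-06), Fads1 rose by 0.95 ± 0.08, Me1 by 0.95 ± 0.09, and Pklr fell by 0.94 ± 0.16.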
